A study of Mus musculus with 8 samples.

Results

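The genes described here encode cation-chloride cotransporters and sodium pump subunits. They were chosen by gene name, as Slc12a2, Slc12a5, Slc12a7, Atp1b1, Atp1b2 and Atp1b3, and all 6 had values among the 14353 genes of the table and passed the filter on low values. RNA of the ventral pallidum (VP) was sequenced in 2 fractions. TRAP, translating ribosome affinity purification, is mRNA on ribosomes pulled down from vGluT2-expressing neurons through a hemagglutinin tag on the ribosomal protein Rpl22. INPUT is the mRNA of the lysate from the same tissue, in which the labels list neurons of every kind and glia. There were 4 pools, named VP1.6, VP2.2, VP2.6 and also VP2.11, and each gave 1 TRAP and 1 INPUT library. All mice were untreated adults, homozygous for VGluT2-Cre and heterozygous for the tagged Rpl22 allele, so both fractions carried the same alleles. A pool held 7 to 11 mice of both sexes, aged 9 to 12 weeks in VP1.6 and 10 to 16 weeks in the other pools. The tag marks any cell that expresses Cre, and the methods state that striatal tissue beside the VP could be in the punches. The methods add that such tissue lacks vGluT2 and so would not contaminate the TRAP fraction. They also call the fraction sequenced beside TRAP unbound, where the labels call it Input.

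Cation-chloride cotransporters of the SLC12 family set the chloride concentration inside a cell. NKCC1 (Slc12a2) carries chloride in with sodium and potassium, and KCC2 (Slc12a5), found in mature neurons, carries chloride out with potassium, so their balance sets whether GABA-A receptor currents inhibit. The ion gradients they use are kept up by the sodium pump, a Na,K-ATPase made of a catalytic alpha subunit and a beta subunit that the alpha subunit needs to mature and reach the membrane. In the brain, beta 1 (Atp1b1) is the main neuronal beta subunit, beta 2 (Atp1b2) is best known from astrocytes, and beta 3 (Atp1b3) occurs in several cell types.

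The data show 1 clear member difference and 1 that depended on the fit. Slc12a5 was 2.76 times as high in TRAP as in INPUT. Atp1b1 was 1.44 times as high, and its call was lost once the pool was a term of the fit. On the log2 scale these differences were 1.47 and 0.52. The neuron markers Snap25, Syt1, Tubb3, Stmn2 and Rbfox3 had 1.93, 1.06, 0.95, 0.78 and 0.55. Slc12a5 thus lay within the range of these markers and Atp1b1 just below it. Slc12a2, Slc12a7, Atp1b2 and Atp1b3 did not pass the test in either fit. With the limma threshold set at an adjusted p of 0.05, 2 of the 6 members were called, both higher in TRAP. Of all genes tested, 47.9% were called in either direction, 23.2% higher and 24.8% lower. In the fit that also held the pool as a block, 1 of the 6 was called, where 32.2% of all genes were called in either direction, 15.4% higher and 16.8% lower. Counted in either direction, the members' share was no larger than that of all genes, so the count itself is not a result about the members.

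The libraries checked against their labels as follows. Slc17a6, which encodes vGluT2, was higher in TRAP in all 4 pools (143 ± 13.6 CPM against 25.9 ± 10.3 CPM, read counts scaled to a common library total, SD, n = 4), and the defining glial genes Gfap, Sox10 and Cx3cr1 were lower in all 4 pools, though none was absent from TRAP. Of 15 markers of astrocytes, oligodendrocytes and microglia, 13 were lower in TRAP and 1 was higher in the limma fit of the fraction alone (12 and 0 in the blocked fit), and their summed level was 1080 to 1920 CPM in TRAP and 4130 to 4320 CPM in INPUT. All 5 general neuron markers were higher in TRAP (4 when blocked), 1 of 3 GABAergic markers was lower in both fits, and 1 of 3 endothelial markers was higher (2 when blocked). The GABAergic marker lower in TRAP was Slc32a1 (mean 10.9 CPM against 25.5 in INPUT). Gad1 (613 against 516 CPM) and Gad2 (528 against 560 CPM) were called in neither fit and stood above Slc17a6 in TRAP. The source of their TRAP reads was not tested. The values hold no read totals. Whole-read steps in the ratio of TRAP to INPUT of low genes gave estimated depths of 12.8 M reads in TRAP and 38.9 M reads in INPUT of VP2.2, and of 12.4 M and 24.7 M reads in VP2.6, while depth is unknown in VP1.6, whose INPUT values were rounded, and in VP2.11, where both libraries were. In VP2.2 74.2% of 4239 low genes, and in VP2.6 88.5% of 4490, had a ratio that whole reads could give. Within a pool, where TRAP was above its fraction's mean INPUT tended to be below its own (r of -0.745 to -0.495 across genes, against 0.0457 to 0.441 for different pools). Values of a pool's libraries are therefore not independent, and each test is given first for the fraction alone and then with pool as a block, called the blocked fit. In bulk libraries, fewer cells of a type and less RNA per cell cannot be told apart.

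Slc12a5 and Atp1b1, the members called higher in TRAP with the fraction alone, are shown with the 250 bases before their start sites. Atp1b1 was not called in the blocked fit (limma adjusted p 0.091). RefSeq (GRCm38.p6) lists 2 start sites for Slc12a5, 7142 bases apart, which begin the KCC2a and KCC2b transcripts. The expression values are per gene and do not separate these transcripts. Capitals mark matches to 4 motifs on either strand. The GC box was searched as GGGCGG, the E-box was searched as CACGTG, the TATA motif was searched as TATANA, and the box named CCAAT was searched by those letters. The windows lie at chr2:164960596-164960845 and chr2:164967738-164967987 on the plus strand for Slc12a5, and at chr1:164458356-164458605 on the minus strand for Atp1b1.
Slc12a5 upstream start: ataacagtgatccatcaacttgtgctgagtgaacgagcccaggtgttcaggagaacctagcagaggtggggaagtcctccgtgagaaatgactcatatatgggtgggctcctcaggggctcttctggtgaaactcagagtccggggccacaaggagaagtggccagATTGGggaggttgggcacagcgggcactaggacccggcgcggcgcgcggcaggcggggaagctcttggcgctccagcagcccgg
Slc12a5 downstream start: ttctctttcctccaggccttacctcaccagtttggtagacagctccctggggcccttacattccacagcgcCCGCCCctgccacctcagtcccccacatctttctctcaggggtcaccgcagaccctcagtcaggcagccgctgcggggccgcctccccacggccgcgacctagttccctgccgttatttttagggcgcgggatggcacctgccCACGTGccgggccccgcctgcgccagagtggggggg
Atp1b1: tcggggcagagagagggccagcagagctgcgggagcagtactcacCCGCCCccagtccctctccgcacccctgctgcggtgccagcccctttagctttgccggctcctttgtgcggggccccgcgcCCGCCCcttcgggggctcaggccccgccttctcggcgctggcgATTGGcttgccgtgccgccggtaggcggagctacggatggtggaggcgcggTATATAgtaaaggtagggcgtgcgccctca
The upstream Slc12a5 window held the CCAAT box 84 bases before the start and none of the other motifs. The downstream window held the GC box 179 bases and the E-box 36 bases before the start. The Atp1b1 window held the GC box 205 and 124 bases, the CCAAT box 81 bases and the TATA motif 30 bases before its start. Of 32851 mouse promoter windows of this length, 32.7% held the GC box, 33.8% the CCAAT box, 6.02% the E-box and 22.6% the TATA motif. The E-box and, in Atp1b1, the TATA motif match both strands at the same place and were counted there once. The GC and CCAAT boxes, found in both genes, are thus common in promoters, and the matches are a description of these letters only. RefSeq windows were given for 4 of the 6 members.

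Slc12a5 (ENSMUSG00000017740, GRCm38 chromosome 2 from 164960802 to 164999731) encodes KCC2, the chloride extruder of mature neurons. Its level in TRAP was 165 CPM in VP1.6, 178 CPM in VP2.2, 197 CPM in VP2.6 and 228 CPM in VP2.11. In INPUT it was 85.0, 51.6, 68.8 and 75.1 CPM in the same order. Every TRAP library lay far above every INPUT library. The means were 192 ± 27.3 CPM and 70.1 ± 14.0 CPM (SD, n = 4). TRAP minus INPUT was 1.47 on the log2 scale (standard error 0.17, blocked 0.22), and limma gave an adjusted p of 1.7e-04 and, blocked, 2.7e-04. The exact two-sided permutation test gave p = 0.029, the smallest that 4 libraries against 4 allow. The difference was 0.95 in VP1.6, the smallest, and 1.79 in VP2.2, the largest. Dropping any single pool left it between 1.36 and 1.64. It was 1.32 under quantile normalization and 1.19 with the block and an exon length trend removed.

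Slc12a2 (ENSMUSG00000024597, chromosome 18 from 57878678 to 57946821) encodes NKCC1, the chloride loader, which glia and the choroid plexus also express. Its TRAP level was 28.9 CPM in VP1.6, 45.9 in VP2.2, 23.7 in VP2.6 and 38.6 in VP2.11. Its INPUT level was 39.4, 21.3, 43.9 and 32.7 CPM in the same order. The fractions overlapped fully, with equal means of 34.3 ± 9.90 CPM in TRAP and 34.3 ± 9.85 CPM in INPUT (SD, n = 4). The pools did not move together. TRAP was lower than INPUT in VP1.6 and VP2.6 and higher in VP2.2 and VP2.11, with differences from -0.89 to 1.11 on the log2 scale. The mean difference was 0.00 (standard error 0.26, limma adjusted p 0.99), and its 95% interval of -0.57 to 0.58 still allows a change of either sign. The mean difference was -0.37 without VP2.2 (limma adjusted p 0.18) and -0.07 without VP2.11 (limma adjusted p 0.87), so its sign depended on the pools included. Choroid plexus and ependymal markers moved with the fraction: all 4 with values were lower in TRAP by limma, 2 of them also when blocked, their summed level was 27.1 to 64.5 CPM in TRAP and 225 to 336 CPM in INPUT, and their part in the Slc12a2 values was not tested.

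Slc12a7 (ENSMUSG00000017756, chromosome 13 from 73733094 to 73816754) encodes KCC4, a potassium-chloride cotransporter best known from kidney and inner ear. It was near the lower limit of the table. Its level was 0.864, 1.54, 1.16 and 0.860 CPM in TRAP of the pools in the order given for Slc12a5, and 1.18, 0.705, 0.908 and 1.03 CPM in INPUT. The groups overlapped, with a difference of 0.19 (standard error 0.39, blocked 0.70) and a limma adjusted p of 0.71, blocked 0.86. The 95% interval of the blocked fit ran from -1.3 to 1.69, and the pools from -0.44 to 1.13. Under quantile normalization, which gives all libraries the same distribution, the difference was 1.34 and passed the test (limma adjusted p 0.018). The result for Slc12a7 thus depended on the normalization.

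**Figure D1:**
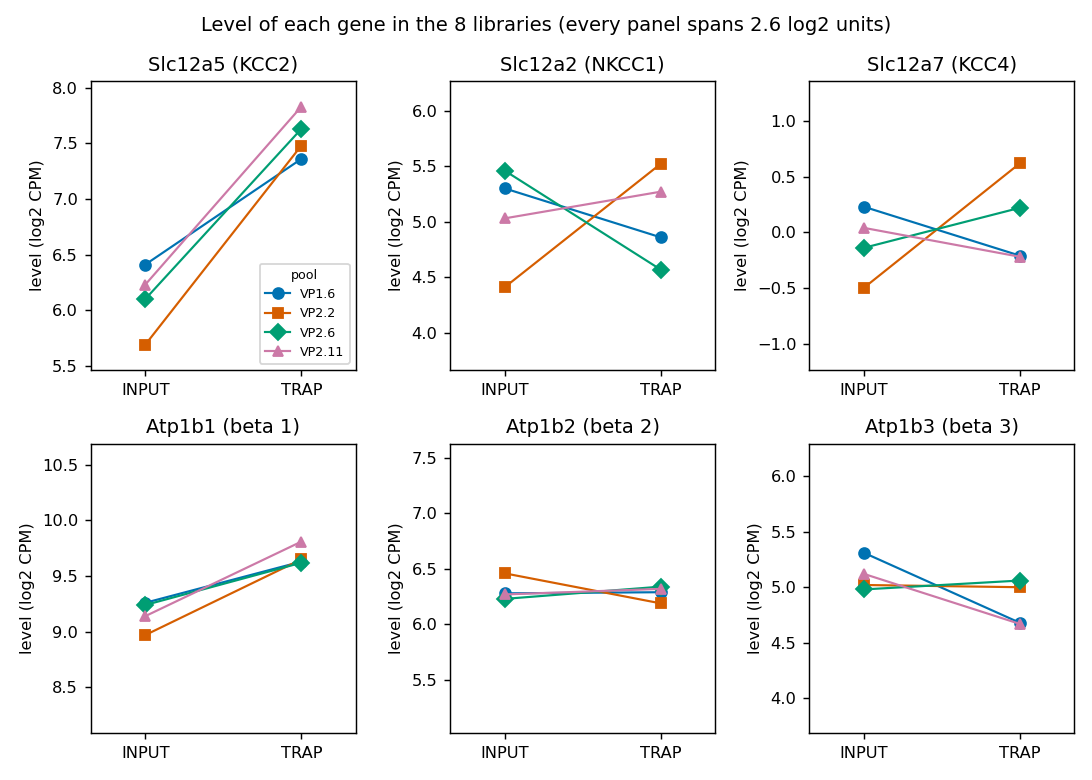
The y axis of each panel is the level of 1 gene in log2 CPM, and lines join the INPUT and TRAP library of a pool. Slc12a5 and Atp1b1 rise from INPUT to TRAP in all 4 pools, Slc12a2 rises in 2 and falls in 2, and Atp1b2 stays nearly level.

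Among the beta subunits, Atp1b1 (ENSMUSG00000026576, chromosome 1 from 164437109 to 164458355) had the highest level of all members. In TRAP it was 793 CPM in VP1.6, 805 in VP2.2, 786 in VP2.6 and 898 in VP2.11. In INPUT it was 613, 502, 605 and 564 CPM in the same order. The groups did not overlap, as for 47.7% of all genes tested (TRAP above INPUT in 23.3% and below it in 24.4%), and the TRAP libraries differed little from each other. The means were 820 ± 52.1 CPM in TRAP and 571 ± 50.6 CPM in INPUT (SD, n = 4). TRAP minus INPUT was 0.52 on the log2 scale, from 0.37 to 0.68 within the pools. By limma the adjusted p was 0.0071 (standard error 0.13) and, blocked, 0.091 (standard error 0.23), and the exact two-sided permutation test gave p = 0.029. With a trend on exon length also taken out, the blocked difference was 0.65 (limma adjusted p 0.024). Exons of Nme7, on the opposite strand, cover 18.7% of the exon bases of Atp1b1, and the strand setting of the counting is not given in the sources used here.

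Atp1b2 (ENSMUSG00000041329, chromosome 11 from 69599736 to 69605942) encodes beta 2, also an adhesion molecule of glia. It was the most even of the members. Its level was 78.5, 73.1, 81.2 and 79.9 CPM in TRAP of the pools in the order given for Slc12a5, and 77.7, 87.9, 75.1 and 77.2 CPM in INPUT. The fractions overlapped, with TRAP slightly above INPUT in 3 pools and below it in VP2.2. The difference was -0.02 on the log2 scale (limma adjusted p 0.88, blocked 0.94). Its 95% interval was -0.27 to 0.23 and, blocked, -0.47 to 0.42. Astrocyte markers moved with the fraction. Of 5 markers, 4 were lower in TRAP in both fits, with a median difference of -1.12 and a summed level of 150 to 253 CPM in TRAP and 343 to 502 CPM in INPUT. Their part in the Atp1b2 level was not tested.

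Atp1b3 (ENSMUSG00000032412, chromosome 9 from 96332655 to 96364442) encodes beta 3. Its TRAP level was 25.7 CPM in VP1.6, 32.0 in VP2.2, 33.3 in VP2.6 and 25.5 in VP2.11. Its INPUT level was 39.7, 32.5, 31.5 and 34.8 CPM in the same order. TRAP VP1.6 and VP2.11 were below every INPUT library, whereas VP2.2 and VP2.6 had nearly equal levels in both fractions. The difference was -0.25 (standard error 0.15), and limma gave an adjusted p of 0.18 and, blocked, 0.43. The exact two-sided permutation test gave p = 0.14.

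Levels were next compared between genes per length, as CPM per kilobase of annotated exon. In TRAP, Atp1b1 stood first at 266 ± 16.9, followed by Slc12a5 at 25.8 ± 3.66, Atp1b2 at 19.1 ± 0.878, Atp1b3 at 12.2 ± 1.72, Slc12a2 at 3.14 ± 0.907 and Slc12a7 at 0.0873 ± 0.0254 (CPM per kilobase, SD, n = 4). In INPUT, the order was Atp1b1 at 185 ± 16.4, Atp1b2 at 19.5 ± 1.4, Atp1b3 at 14.5 ± 1.53, Slc12a5 at 9.42 ± 1.88, Slc12a2 at 3.14 ± 0.902 and Slc12a7 at 0.0754 ± 0.0157. Slc12a5 thus stood after both minor beta subunits in INPUT and before them in TRAP. No neighbours in either order overlapped between their 4 libraries. Across all genes TRAP minus INPUT rose with exon length (Spearman's rho 0.412). Slc12a5 has 7447 exon bases, Atp1b2 4085 and Atp1b3 2389, and the orders were not redone with that trend removed. Atp1b1 made up 89.4% ± 0.951 of the summed beta level per length in TRAP and 84.5% ± 1.61 in INPUT (SD, n = 4). Slc12a5 made up 88.8% ± 3.09 of the summed level of the 3 cotransporters in TRAP and 74.8% ± 3.73 in INPUT. These shares rest on the exons of all annotated transcripts of a gene, not on those in use in the VP.

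**Figure D2:**
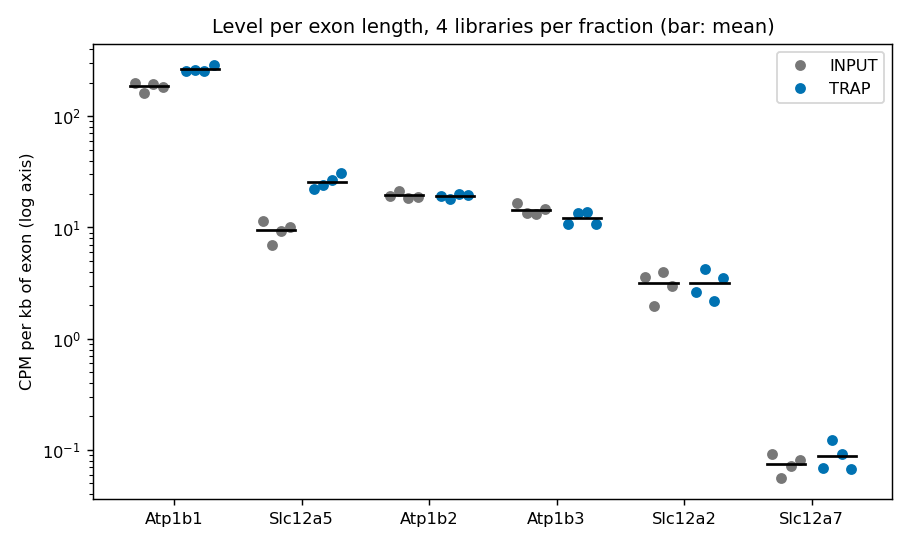
Points are libraries, 4 per fraction, bars are means, and the log axis gives CPM per kilobase of exon. Slc12a5 moves from below Atp1b2 and Atp1b3 in INPUT to above both in TRAP, and Slc12a7 lies below all other members.

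Whether members of a family differed in their change was tested with ratios within a library. A single scale factor per library cancels in such a ratio, while quantile normalization can change it. Among the pairs, only Atp1b1 with Atp1b2 sets the main neuronal isoform beside one best known from astrocytes. The ratio of Slc12a5 to Slc12a2, KCC2 to NKCC1, was 2.51 in VP1.6, 1.96 in VP2.2, 3.06 in VP2.6 and 2.56 in VP2.11 on the log2 scale in TRAP. In INPUT it was 1.11, 1.28, 0.65 and 1.2 in the same order. Every TRAP library thus had more Slc12a5 for its Slc12a2 than every INPUT library. The ratio was 2.75 times as high in TRAP, a log2 difference of 1.46 with a 95% interval over the pools of 0.32 to 2.6. The exact two-sided permutation test gave p = 0.029 (adjusted p = 0.043 over 6 ratios). Per length, Slc12a5 was 8.42 times Slc12a2 in TRAP and 3.06 times in INPUT. Slc12a2 itself had a mean difference of 0.00, so the rise of the ratio is nearly that of Slc12a5 alone (1.47).

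The ratio of Atp1b1 to Atp1b2 rose from 2.84 ± 0.23 in INPUT to 3.39 ± 0.10 in TRAP on the log2 scale (SD, n = 4), a difference of 0.55 with a 95% interval of 0.06 to 1.03. The ratio of Atp1b1 to Atp1b3 rose from 4.05 ± 0.15 to 4.83 ± 0.27, a difference of 0.78 with an interval of 0.19 to 1.36. The ratio of Slc12a5 to Slc12a7 rose from 6.20 ± 0.03 to 7.47 ± 0.49, a difference of 1.27 with an interval of 0.48 to 2.07. Slc12a7 had means of only 1.11 CPM in TRAP and 0.955 CPM in INPUT, so the small INPUT SD is no measure of precision. All of these ratios were higher in TRAP in 4 of 4 pools and had an exact permutation p of 0.029 (adjusted p = 0.043). Under quantile normalization the single-gene differences were 1.32 for Slc12a5, 1.34 for Slc12a7 and -0.06 for Slc12a2. They were 0.38 for Atp1b1, -0.16 for Atp1b2 and -0.31 for Atp1b3. On the log2 scale, the difference of a ratio is that of its upper gene minus that of its lower gene. The rise of Slc12a5 to Slc12a7 was thus absent under that normalization, while the other rises kept their direction. The ratios were not tested under that normalization. The ratio of Atp1b3 to Atp1b2 differed by -0.23 (95% interval -0.89 to 0.42, exact permutation p = 0.17), and that of Slc12a7 to Slc12a2 by 0.19 (-0.99 to 1.37, exact permutation p = 0.43). In the paired form, an exact sign-flip test over 4 pools cannot go below p = 0.125, and the ratios higher in TRAP reached that value.

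**Figure D3:**
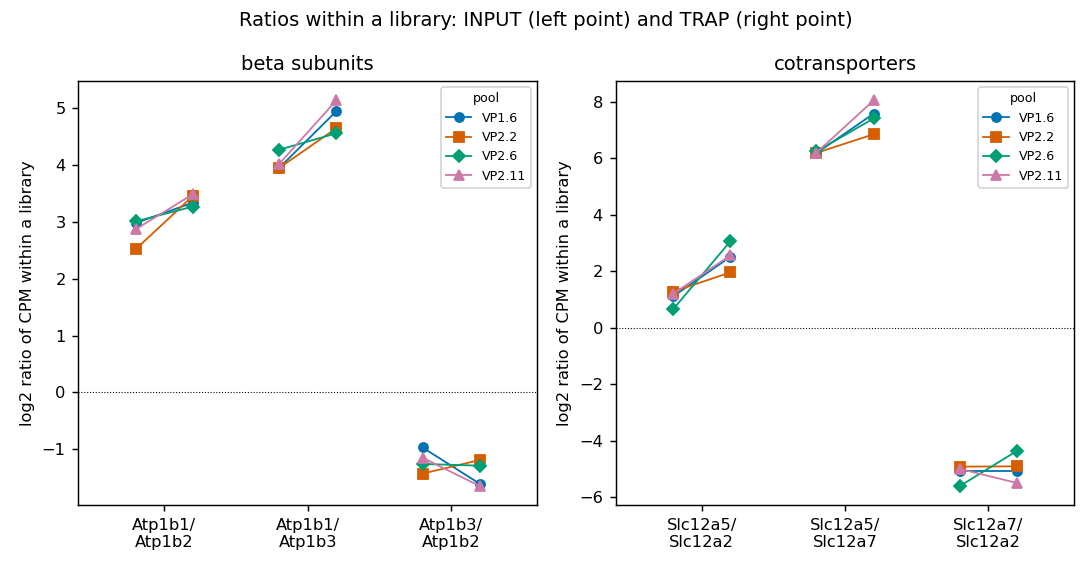
The y axis is the log2 ratio of CPM of a gene pair within a library, with INPUT left and TRAP right for each pair and lines joining a pool. The Slc12a5 ratios and the Atp1b1 ratios rise in all 4 pools, and the 2 other ratios have pools in both directions or at 0.

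The other genes of the chloride and sodium pump systems came from fixed lists. Of 28 genes in 4 lists, 21 had values and were tested. By limma at an adjusted p under 0.05, 7 genes were higher in TRAP and 6 were lower, and when blocked 4 were higher and 4 lower. Over all genes tested, 23.2% were higher and 24.8% lower, and when blocked 15.4% and 16.8%. The median difference of the list genes was 0.25, beside -0.05 over all genes tested.

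FXYD proteins are small membrane proteins that tune the pump. Of 5 tested, 3 were lower in both fits and none was higher, where 24.8% of all genes were lower and 16.8% when blocked. Fxyd1 (phospholemman) fell from 43.1 ± 12.0 CPM in INPUT to 5.26 ± 1.73 CPM in TRAP (SD, n = 4), a log2 difference of -3.06 (limma adjusted p 7.7e-05, blocked 1.9e-05). Fxyd2, the gamma subunit of the kidney pump, fell by 2.62 on the log2 scale (adjusted p 2.6e-04, blocked 1.9e-04), and both had their largest fall in VP2.2. Fxyd5 had a difference of -1.59 (adjusted p 0.032, blocked 0.041), with TRAP above INPUT in VP2.11. Fxyd6 and Fxyd7, which neurons express, did not pass the test, with differences of -0.30 and 0.56 (limma adjusted p 0.23 and 0.16). The choroid plexus and ependymal markers were also lower in TRAP, at the summed levels given with Slc12a2, and their part in these falls was not tested.

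Slc12a4 and Slc12a9 belong to the same family as the cotransporters above. Slc12a4 (KCC1), the widespread potassium-chloride cotransporter, had 0.650 ± 0.223 CPM in TRAP and 2.00 ± 0.518 CPM in INPUT (SD, n = 4), a difference of -1.66 (limma adjusted p 0.0070, blocked 0.074). Slc12a9 was higher by 1.10 (adjusted p 0.0086, blocked 0.051).

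WNK kinases, with SPAK (Stk39) and OSR1 (Oxsr1), phosphorylate the cotransporters, which turns NKCC1 on and KCCs off. Of 8 genes, Stk39 (difference 0.38) and Cab39 (0.49), which encodes a scaffold that activates SPAK, were called higher with the fraction alone (limma adjusted p 0.038 and 0.022) but not when blocked (0.19 and 0.10). Cab39l, the paralog of Cab39, was lower in both fits (-0.80, adjusted p 0.012, blocked 0.025). Wnk1, Wnk2, Wnk3, Wnk4 and Oxsr1 did not pass the test in either fit, with differences of -0.17, 0.23, 0.25, -0.37 and 0.53. For Wnk1 the pool VP2.2 had a difference of 1.24, against -0.73 to -0.46 in the other pools, so VP2.2 was the only pool with TRAP above INPUT. The difference of Slc12a2 was likewise largest in VP2.2.

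SLC4 transporters exchange or cotransport bicarbonate and, in part, chloride. Of 6 tested, 4 were higher in both fits, where 23.2% of all genes were higher and 15.4% when blocked. Slc4a8 had 50.6 ± 7.59 CPM in TRAP and 15.1 ± 3.93 CPM in INPUT (SD, n = 4), a difference of 1.78 (limma adjusted p 1.5e-04, blocked 1.3e-04). Slc4a8 and Slc4a10, which was higher by 0.99 (adjusted p 0.0026, blocked 0.0060), encode sodium-driven bicarbonate transporters of neurons. Slc4a7 was higher by 1.03 (adjusted p 0.0060, blocked 0.023) and Slc4a3, the anion exchanger AE3, by 0.71 (adjusted p 0.0015, blocked 0.023). Slc4a2 (AE2) had -0.90 (adjusted p 0.015, blocked 0.10). Slc4a4 had 0.26 (adjusted p 0.52, blocked 0.57), with 1.86 in VP2.2 and -0.64 to -0.08 in the other pools.

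**Figure D4:**
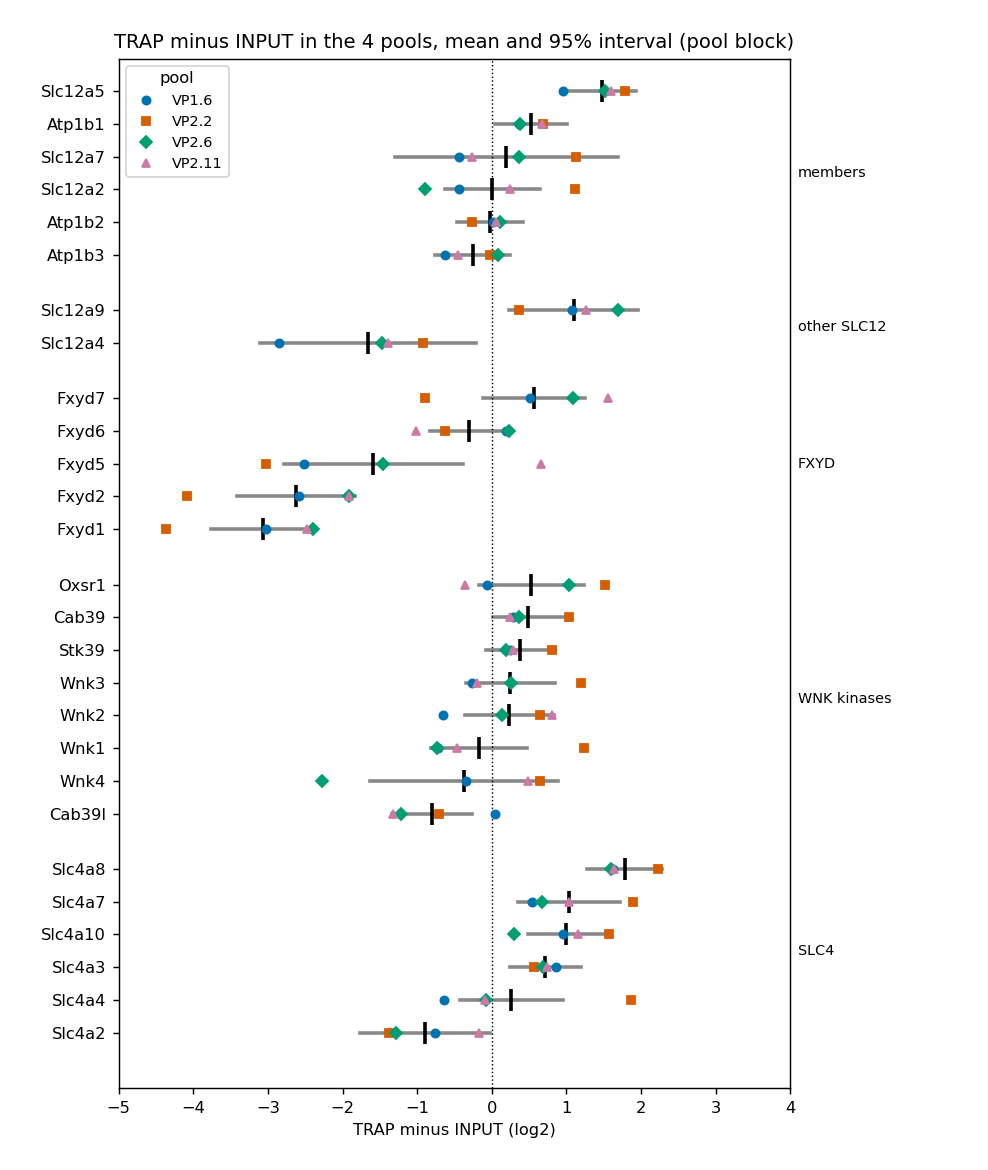
The x axis is TRAP minus INPUT on the log2 scale, coloured points are the 4 pools, black ticks are means and grey bars are 95% intervals of the limma fit with the pool as a block. The intervals of Slc12a5 and Slc4a8 lie above 0 and those of Fxyd1 and Fxyd2 below it, while the intervals of Slc12a2, Slc12a7, Atp1b2 and Atp1b3 span 0.

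The genes whose log2 levels followed each member most closely over the 8 libraries were named by Pearson's r, as a description, since the libraries share pools and fractions. For Slc12a5 they were Brd3, Copb1 and Aplp2 (r of 0.998, 0.998 and 0.997), and for Atp1b1 they were Sorl1, Dnajc6 and Camk2b (r of 0.999 each). Slc12a5 and Atp1b1 themselves had an r of 0.983. For Slc12a2 they were Ptpn4, Hipk3 and Sipa1l1 (0.998, 0.992 and 0.989). Atp1b2 was followed by Nfu1, Prdx5 and Arhgap44 (0.997, 0.997 and 0.996), and its r with Slc12a2 was -0.869. Atp1b3 was followed by Atg16l2, Rbak and Mtss1l (0.992, 0.989 and 0.985). Slc12a7 was followed by 2700069I18Rik, Rmi1 and Kcna3 (0.994, 0.988 and 0.986).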

How the data were processed

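RNA was measured in 4 TRAP and 4 INPUT libraries. The authors aligned reads with STAR 2.5.1a to GRCm38 (Ensembl release 76), used featureCounts for uniquely placed reads, scaled libraries by TMM in edgeR and fitted limma with voom and quality weights. Per library, the authors deposited log2 CPM values, and those of both VP2.11 libraries and of VP1.6 INPUT carry only 3 significant digits. The table also holds fold changes, limits, p-values and a transcript count, which were not used.

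Of 14398 entries, 45 repeats were left out. The 14249 genes that exceeded 1 CPM in 3 or more libraries were compared with limma 3.58.1 (trended eBayes, R 4.3.3) with the fraction alone, and again with the pool as a block. P-values were adjusted by Benjamini-Hochberg over all genes. The test was run on log2 values because read counts were not used here. Single values and ratios had exact permutation tests (scipy 1.17.1). Both fits were run on simulated data in which the libraries of a pool deviated in opposite directions. The share of unchanged genes with p under 0.05 was computed there for both fits, but held to a limit only for the blocked fit. The fit of the fraction alone takes no account of the pairing. Pools pair the libraries because both fractions come from 1 homogenate. The deviations of a pool's libraries had a mean r of -0.661, so they went in opposite directions. Whether a pool shift was taken out of the deposited values is not stated in the sources used here, and it was not tested. Mice of a pool were combined, so no p-value measures the spread between mice. The blocked fit and the sign-flip test use the spread of TRAP minus INPUT between pools. The fit of the fraction alone and the permutation tests treat the libraries of a pool as independent. Where those libraries deviate in opposite directions, as here, p-values from that fit and those tests can be too small. Every member's standard error was smaller with the fraction alone, for Atp1b1 0.13 against 0.23 in the blocked fit.

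Exon lengths and positions came from GENCODE M21 (GRCm38), matched by gene identifier for all genes, and promoters from RefSeq. The depth estimate uses ratios within a pool and assumes the 0.5 read offset of voom. Named genes were the members, tested genes of the fixed lists (some are not reported here, and list counts leave them out), defining markers and, for each member, the 3 genes of highest r. Members and lists were chosen with earlier results of these data known. Alternatives were array weights, the block, quantile normalization, median centring, log2(CPM + 1), no filter, an exon length trend (Spearman's rho of length and difference 0.412 across genes) and leaving out each pool.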

Additional observations from a re-analysis of the deposited data

Results flagged for a closer look

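Levels and ratios were examined in 66 groups of 4 libraries with Dixon's ratio, for 1 library standing away from its group. By chance about 1 in 20 groups, 3.3 here, would be found, and 5 were, none of them in a member or a member ratio. INPUT VP2.2 held 3 of them, all low on the log2 CPM scale: Stk39 at 5.88 (others 6.29 to 6.31), Cab39 at 6.42 (others 6.92 to 7.01) and Slc4a7 at 2.00 (others 2.79 to 2.90). TRAP VP2.2 was high for Wnk1 at 6.23 (others 5.34 to 5.44). For Slc12a4 the high library was INPUT of VP1.6 at 1.47 (others 0.73 to 0.85).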

How the results depend on the processing

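The difference of Slc12a5 kept its direction and its call under all 16 alternatives, and that of Atp1b1 kept its direction under all. The call of Atp1b1 was lost with the pool as a block (0.52), with the block and array weights (0.44), under quantile normalization (0.38) and in each blocked fit that left out a pool, while its difference with a pool left out ran from 0.47 to 0.58 (0.58 without VP1.6, 0.47 without VP2.2, 0.57 without VP2.6 and 0.48 without VP2.11, lost in each blocked fit). The pool as a block ended no other member's call. The sign of Slc12a2 was negative with array weights (-0.46), with the block and array weights (-0.39), under quantile normalization (-0.06) and with the block and the exon length trend removed (-0.43). With a pool left out it ran from -0.37 (without VP2.2) to 0.30 (without VP2.6). Slc12a7 had 1.34 under quantile normalization, where it was called, -0.30 with the block and the length trend removed, and -0.12 (without VP2.2) to 0.41 (without VP1.6) with a pool left out. Atp1b2 had 0.05 with array weights, 0.03 with the block and array weights, 0.01 after median centring and -0.07 (without VP2.6) to 0.06 (without VP2.2) with a pool left out. Atp1b3 had 0.00 with the block and the length trend removed. None of these values of Slc12a2, Atp1b2 or Atp1b3 was called. The causes were not tested. With an exact sign-flip test over pools, which cannot go below p = 0.125, no ratio was called, and those called in the unpaired test lost their calls (Atp1b1/Atp1b2 0.55, Atp1b1/Atp1b3 0.78, Slc12a5/Slc12a2 1.46, Slc12a5/Slc12a7 1.27, values that this test cannot move).

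Over all genes, 3300 were higher in TRAP and 3530 lower. The replicate block, pairing by pool, gave 2199 higher and 2393 lower, and 2196 were higher with the length trend also removed. Leaving out a pool gave 1532 to 3274 higher and 1656 to 3613 lower, with the lowest numbers in the blocked fits. Those had 1550 higher and 1656 lower without VP1.6, 2123 and 2039 without VP2.2, 1532 and 1715 without VP2.6, and 1863 and 2230 without VP2.11. Of the pathway genes, 7 were higher and 6 lower. With the replicate block 4 were higher, with the length trend also removed 3 were higher, and under quantile normalization 3 were lower. With a pool left out 3 to 7 were higher and 2 to 5 lower, and without VP2.6 4 were higher and 3 lower in the unblocked fit. Of 5 neuron markers all were higher, 3 with the block and the length trend removed, and 2 to 5 with a pool left out (3 without VP2.6). Depth is unknown for 2 of the 4 pools, so what it limits was not worked out per gene.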
